A study of Mus musculus with 4 samples.

Results

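The 10 genes described here encode the 5 subunits of the transcription factor NF-kB (Nfkb1, Nfkb2, Rel, Rela and Relb) and 5 inhibitors of it (Nfkbia, Nfkbid, Nfkbiz, Bcl3 and Tnfaip3). They were chosen by name. All 10 were among the 23284 gene symbols counted, and all 10 were among the 16488 genes that passed the filter on low counts. RNA sequencing was done on regulatory T (Treg) cells, a T cell subset defined by Foxp3 that holds immune responses in check. The cells were sorted from epididymal white adipose tissue (eWAT) or spleen. The mice were C57BL/6, 12-13 months old, and either PPARg-2KR or wild type (WT). PPARg-2KR is an altered form of PPARG, the nuclear receptor that directs fat storage genes and is known for its part in Treg cells of visceral fat; how widely the mice express it is not given in the sources used here. There were 4 libraries, 1 each for 2KR eWAT, WT eWAT, 2KR spleen and WT spleen, and whether a library came from 1 mouse or from pooled mice is not stated.

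NF-kB is a family of dimeric transcription factors held in the cytoplasm by inhibitors of the IkB family. Signals from antigen, cytokine and innate receptors activate IkB kinase, the IkB proteins are degraded and the dimers enter the nucleus. The genes of several inhibitors are themselves NF-kB targets, which gives the pathway a negative feedback. In Treg cells, Rel and Rela are known for their parts in Foxp3 induction and in keeping the mature cells functional.

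Library totals ran from 8315569 reads in 2KR eWAT to 15993889 reads in 2KR spleen. The 10 genes together took 0.929% of the reads in 2KR eWAT, 1.53% in WT eWAT, 0.252% in 2KR spleen and 0.263% in WT spleen. Foxp3, which defines the sorted cells, had 802.7 CPM in 2KR eWAT, 1160 CPM in WT eWAT, 1297 CPM in 2KR spleen and 1407 CPM in WT spleen, where CPM is the read count scaled to a common library size with TMM factors. The tissue difference of Foxp3 did not pass the threshold (edgeR adjusted p = 0.162). Of 7 Treg and T cell markers, Ctla4 was higher and Cd3e, Cd4 and Lck were lower in eWAT. All 8 macrophage markers and all 6 dendritic cell markers were higher in eWAT. The summed macrophage markers reached 1640.5 and 1287 CPM in the 2KR and WT eWAT libraries, against 71.8 and 93.5 CPM in the 2KR and WT spleen libraries. The summed dendritic cell markers reached 4067 and 2333 CPM in 2KR and WT eWAT, against 85.9 and 120.1 CPM in 2KR and WT spleen. In eWAT each of these sums came mostly from 1 gene. Lyz2 had 1212 and 1015 CPM of the macrophage sum in 2KR and WT eWAT. H2-Ab1 had 3527 and 1988 CPM of the dendritic cell sum in the same libraries. Markers were also summed for B cells, mast cells, type 2 innate lymphoid cells, fibroblasts, endothelium and adipocytes. These sums stood between 5.72 and 461.5 CPM in the eWAT libraries, against 1.13 to 191.6 CPM in the spleen libraries. The fibroblast sums were 193.3 and 461.5 CPM in 2KR and WT eWAT, against 3.67 and 4.92 CPM in 2KR and WT spleen. The highest spleen sum was endothelial, in 2KR spleen, where Pecam1 alone had 190.5 CPM, and Pecam1 was lower in eWAT. Adipoq, Plin1, Lep and Cfd of adipocytes had 11, 14, 123 and 6 reads in 2KR eWAT, and 0, 9, 88 and 20 reads in WT eWAT. In bulk RNA, fewer cells of a type and less RNA per cell cannot be told apart, and the part of these other cells in the differences below was not tested.

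Rel and 4 of the 5 inhibitors were higher in eWAT Treg cells than in splenic Treg cells, with folds from 2.74 for Nfkbia to 16.0 for Tnfaip3. Relb was lower, and Nfkb1, Nfkb2, Rela and Bcl3 did not pass the test. The comparison asks what marks fat Treg cells against the splenic cells that the series uses as controls. It set the 2 eWAT libraries against the 2 spleen libraries with edgeR's quasi-likelihood test, and a gene passed at a Benjamini-Hochberg adjusted p under 0.05 over all 16488 genes. The spread behind these p-values is that between the libraries of a tissue, so it contains any genotype effect, and nothing in the labels says that it reflects separate mice. Of all genes tested, 33.7% passed as higher in eWAT and 23.2% as lower, beside 5 and 1 of the 10. These shares rest on 5555 higher and 3833 lower genes; 3402 were higher without 2KR eWAT, 2178 were lower without 2KR spleen and 1909 were lower without WT spleen. Among the 7685 genes with a mean of at least 20 CPM, as all 10 have, 10.2% passed as higher and 42.8% as lower. The median tissue log2 fold change was 2.67 over the 5 inhibitors and −0.17 over the 5 subunits, beside 0.11 over all genes tested.

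**Figure D1:**
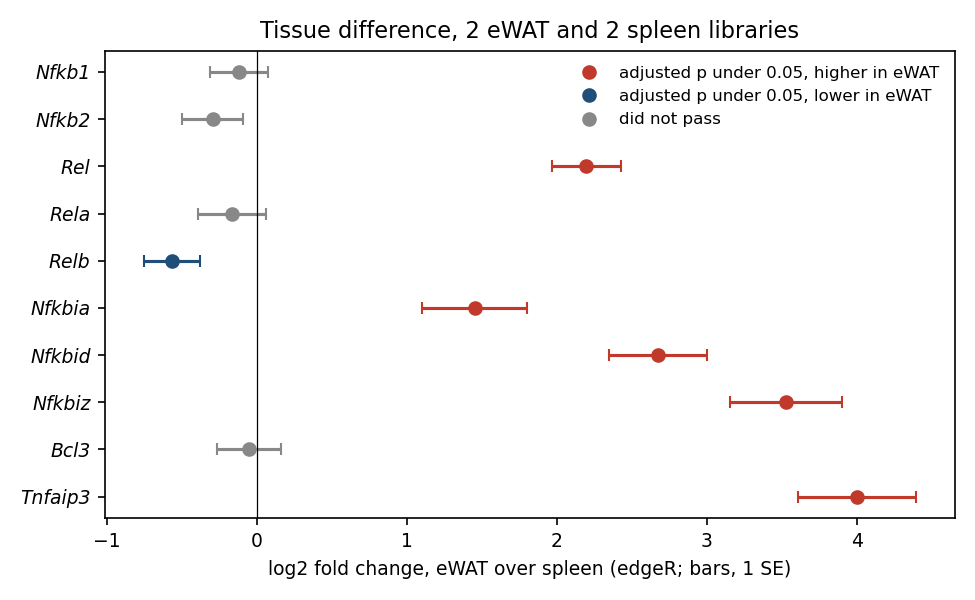
Log2 fold change of each gene, eWAT over spleen, from edgeR on 2 eWAT and 2 spleen libraries; points are estimates, bars are 1 standard error, and colour gives the outcome of the test at an adjusted p of 0.05. Rel, Nfkbia, Nfkbid, Nfkbiz and Tnfaip3 lie to the right at 1.45 or more, Relb lies to the left at −0.57, and the other 4 genes lie near 0.

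Promoter letters were read for the genes that were higher in eWAT, because several are known NF-kB targets. RefSeq promoter windows of the GRCm38.p6 build matched 7 of the 10 genes, with 12 windows in all, and none was found for Nfkb1, Relb and Nfkbiz. The 250 bases before each start were searched on both strands for the kappaB consensus, the 10-letter motif that NF-kB dimers are known to bind, with overlapping matches allowed. A match stood in 7 of the 12 windows and in 5 of the 7 genes. These were the 4 genes with a window that were higher in eWAT, and 1 of the 3 others, Nfkb2. Of all 32817 windows of that length, 3.9% held a match, as did 4.45% of 26994 genes. The 10 genes were chosen by name and several are known NF-kB targets, so nothing is read from the gap between these shares. Whether the matches bear on the tissue difference was not tested. The windows printed here belong to the genes on which the tissue difference turns and to Nfkb2, which holds matches and did not pass. They are written 5′ to 3′ on the gene's strand and ending at the base before the start, with matches in capitals. The positions are chr12:55492648-55492897 on the minus strand for Nfkbia, chr10:19015411-19015660 on the minus strand for Tnfaip3, and chr7:30422156-30422405 on the plus strand for Nfkbid. The window for Rel is chr11:23770970-23771219 on the minus strand, and that for Nfkb2 is chr19:46304487-46304736 on the plus strand.
Nfkbia: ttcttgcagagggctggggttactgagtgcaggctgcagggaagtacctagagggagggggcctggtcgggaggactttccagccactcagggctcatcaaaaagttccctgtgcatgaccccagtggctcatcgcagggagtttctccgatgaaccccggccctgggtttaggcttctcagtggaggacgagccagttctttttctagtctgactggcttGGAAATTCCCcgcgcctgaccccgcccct
Tnfaip3, upstream start: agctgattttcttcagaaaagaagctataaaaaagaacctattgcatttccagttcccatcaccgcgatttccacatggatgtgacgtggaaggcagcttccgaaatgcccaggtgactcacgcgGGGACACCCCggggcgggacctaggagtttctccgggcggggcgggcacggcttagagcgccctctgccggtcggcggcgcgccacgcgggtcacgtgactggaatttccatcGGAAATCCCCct
Nfkbid: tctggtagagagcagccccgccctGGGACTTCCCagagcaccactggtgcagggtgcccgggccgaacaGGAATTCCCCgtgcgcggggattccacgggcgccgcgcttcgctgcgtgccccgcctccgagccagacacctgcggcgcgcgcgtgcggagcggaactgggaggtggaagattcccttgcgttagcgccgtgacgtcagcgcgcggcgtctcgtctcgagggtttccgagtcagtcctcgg
Rel: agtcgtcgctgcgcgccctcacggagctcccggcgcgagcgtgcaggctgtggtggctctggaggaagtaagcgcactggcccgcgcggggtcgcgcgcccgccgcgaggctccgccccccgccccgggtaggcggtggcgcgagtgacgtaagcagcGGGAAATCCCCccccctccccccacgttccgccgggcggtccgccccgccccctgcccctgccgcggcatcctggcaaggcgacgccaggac
Nfkb2: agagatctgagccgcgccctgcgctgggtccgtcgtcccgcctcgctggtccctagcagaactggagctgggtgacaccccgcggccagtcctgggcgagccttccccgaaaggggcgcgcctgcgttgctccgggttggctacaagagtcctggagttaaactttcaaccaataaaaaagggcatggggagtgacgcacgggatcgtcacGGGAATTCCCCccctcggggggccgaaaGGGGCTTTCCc
The Nfkbia match begins 29 bases before the start, and the Tnfaip3 matches begin 125 and 12 bases before it. Those of Nfkbid begin 226 and 181 bases before the start of the second of its 3 windows, and the other 2 windows hold none. Rel has 2 overlapping matches at 92 and 91 bases, and Nfkb2 has 2 overlapping matches at 39 and 38 bases and another at 11 bases in the first of its 3 windows; the other 2 windows hold 1 match each. The downstream window of Tnfaip3 holds none. The windows of Rela and Bcl3 held no match. A match describes letters in the window and is not evidence of binding in these cells.

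Rel encodes c-Rel, a subunit with a transactivation domain that lymphocytes use strongly, and it was the only subunit of the 5 that rose. It lies at chr11:23641729-23670970 in the mm9 build of the deposited files. Its level was 174.5 CPM in 2KR eWAT, 116.6 CPM in WT eWAT, 28.2 CPM in 2KR spleen and 35.3 CPM in WT spleen. Both eWAT libraries lay above both spleen libraries, and 2KR eWAT was the highest of all 4. The log2 fold change of eWAT over spleen was 2.20 ± 0.23 (SE, n = 2 libraries each; edgeR adjusted p = 7.12e-06), a fold of 4.58. Within genotypes the log2 ratio of eWAT over spleen was 2.62 in 2KR and 1.72 in WT.

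Rela, encoding p65, the subunit that pairs with p50 in the most common dimer, had 223.2 CPM in 2KR eWAT, 314.6 CPM in WT eWAT, 297.2 CPM in 2KR spleen and 306.2 CPM in WT spleen. The 2KR eWAT library was the lowest and the other 3 lay within a narrow band. The log2 fold change was −0.17 ± 0.22 (SE; edgeR adjusted p = 0.546). Nfkb1 encodes the p105 precursor of p50 and had 137.6 CPM in 2KR eWAT, 162.8 CPM in WT eWAT, 158.6 CPM in 2KR spleen and 167.5 CPM in WT spleen. Its tissue groups overlapped, with a log2 fold change of −0.12 ± 0.19 (SE; edgeR adjusted p = 0.621). Nfkb2 encodes the p100 precursor of p52 of the non-canonical arm and had 128.9, 169.7, 177 and 189.3 CPM in 2KR eWAT, WT eWAT, 2KR spleen and WT spleen in that order. Both eWAT libraries lay below both spleen libraries, but the log2 fold change of −0.29 ± 0.20 (SE) did not pass (edgeR adjusted p = 0.230).

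Relb (mm9 chr7:20191571-20214787) encodes the partner of p52 and was the only gene of the 10 that fell. It had 109.2 CPM in 2KR eWAT and 107.7 CPM in WT eWAT, against 157.1 CPM in 2KR spleen and 164.6 CPM in WT spleen. The eWAT libraries were close to each other and lay below both spleen libraries. The log2 fold change was −0.57 ± 0.19 (SE; edgeR adjusted p = 0.0186). It did not pass with total-count scaling (−0.40, edgeR adjusted p = 0.0525) or with limma on FPKM (−0.42, adjusted p = 0.150 at a pseudocount of 1). The log2 fold change was −0.66 without 2KR spleen, −0.58 without WT spleen, −0.65 without 2KR eWAT and −0.66 without WT eWAT. Each of these fits left 1 library in a tissue, so only the sizes are given.

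Tnfaip3 (mm9 chr10:18720717-18735216) encodes A20, a ubiquitin-editing enzyme that shuts down signalling upstream of IkB kinase, and it had the largest fold of the 10 genes. It had 3579.6 CPM in 2KR eWAT and 7136 CPM in WT eWAT, against 359 CPM in 2KR spleen and 310.1 CPM in WT spleen. WT eWAT was the highest library, and no eWAT value came near a spleen value. The log2 fold change was 4.001 ± 0.395 (SE; edgeR adjusted p = 4.27e-06), a fold of 16.0. Within genotypes the log2 ratio was 3.32 in 2KR and 4.52 in WT.

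Nfkbiz (mm9 chr16:55811490-55838754) encodes IkB-zeta, a nuclear IkB protein that can also activate a subset of NF-kB targets. It had 1018.5 CPM in 2KR eWAT and 2296 CPM in WT eWAT, against 164.8 CPM in 2KR spleen and 122.3 CPM in WT spleen. Both eWAT libraries lay well above both spleen libraries, with a log2 fold change of 3.53 ± 0.37 (SE; edgeR adjusted p = 7.29e-06). Nfkbid (mm9 chr7:31208323-31213765) encodes IkB-NS, a nuclear IkB protein known for its part in Foxp3 induction. It had 529.4 CPM in 2KR eWAT and 1175 CPM in WT eWAT, against 132.7 CPM in 2KR spleen and 134.2 CPM in WT spleen. The spleen libraries were nearly equal and both eWAT libraries lay above them, with a log2 fold change of 2.67 ± 0.33 (SE; edgeR adjusted p = 2.92e-05).

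Nfkbia (mm9 chr12:56590396-56593634) encodes IkB-alpha, the classical cytoplasmic inhibitor. It had 2017 CPM in 2KR eWAT and 4167 CPM in WT eWAT, against 1037 CPM in 2KR spleen and 1222 CPM in WT spleen. The eWAT libraries lay above the spleen libraries, and 2KR eWAT stood closer to spleen than to WT eWAT. The log2 fold change was 1.45 ± 0.35 (SE; edgeR adjusted p = 0.00383). The log2 fold change of Nfkbia was 1.29 without the 2KR spleen library and 1.54 without the WT spleen library. It was 1.82 without 2KR eWAT and 0.74 without WT eWAT. Each of these fits left 1 library in a tissue, so only the sizes are given. Bcl3, a nuclear IkB protein that can co-activate p50 and p52 dimers, had 116.3 CPM in 2KR eWAT, 164.8 CPM in WT eWAT, 131.3 CPM in 2KR spleen and 160.4 CPM in WT spleen. Its tissue groups overlapped (log2 fold change −0.05 ± 0.21, SE; edgeR adjusted p = 0.847), and it was the only inhibitor of the 5 that did not pass.

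**Figure D2:**
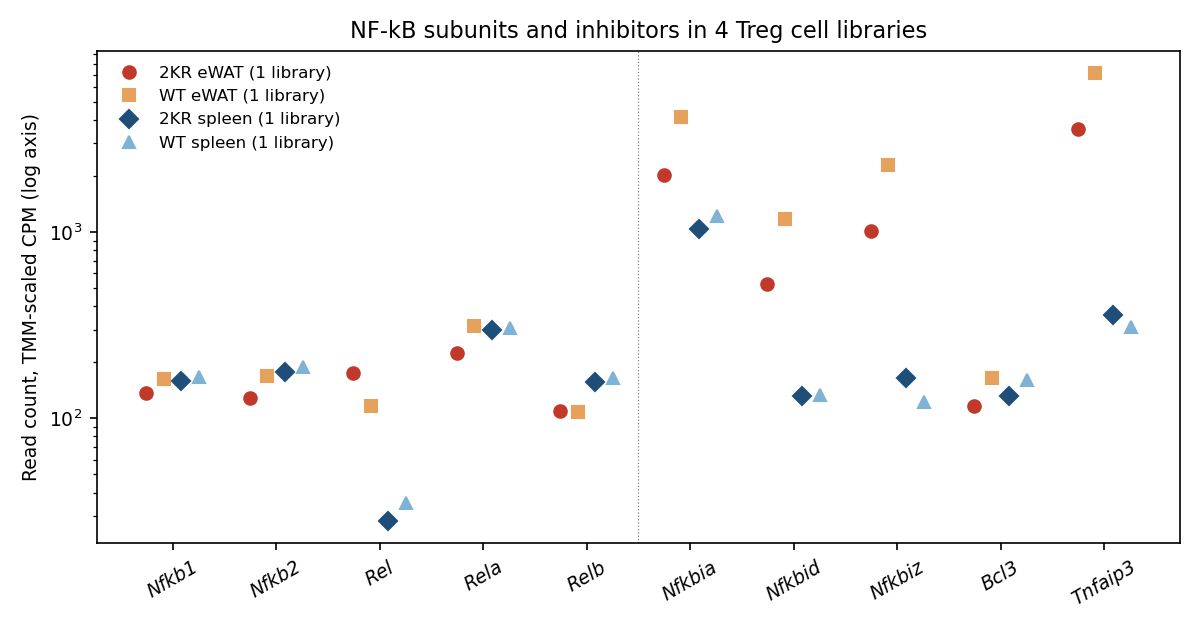
Level (CPM) of each gene in the 4 libraries on a log axis, 1 point per library and no error bars, since there is 1 library per tissue and genotype. For Tnfaip3 the 2KR and WT eWAT points stand at 3579.6 and 7136 CPM, far above the 2KR and WT spleen points at 359 and 310.1 CPM, while Nfkb1, Nfkb2, Rela and Bcl3 lie close together.

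Of the 10 genes, 4 (Rel, Nfkbid, Nfkbiz and Tnfaip3) were at least 2-fold higher in eWAT within both genotypes, where 18.8% of 12307 genes at 5 CPM or more were. Nfkbia missed this in 2KR, with a log2 ratio of 0.96, and reached 1.77 in WT. The WT eWAT library set much of the size of the inhibitor differences. Without it, the log2 fold change was 3.32 for Tnfaip3, 2.72 for Nfkbiz, 1.89 for Nfkbid and 0.74 for Nfkbia. Without that library Nfkb2 (−0.61), Rela (−0.53) and Bcl3 (−0.42) stood lower in eWAT. With 1 eWAT library left, that fit measured no spread within eWAT, so only the sizes are given.

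Levels of different genes were compared per length with FPKM, the authors' length-scaled fragment values. By FPKM, Nfkbia was the most abundant of the 10 transcripts in every library, at 1700.2 in 2KR eWAT, 2913 in WT eWAT, 686.1 in 2KR spleen and 794.8 in WT spleen. Only 26 genes in 2KR eWAT and 16 genes in WT eWAT had a higher FPKM than Nfkbia, against 90 in 2KR spleen and 88 in WT spleen. Tnfaip3 stood behind 54 genes in 2KR eWAT and 34 in WT eWAT, against 1564 in 2KR spleen and 1926 in WT spleen. In both eWAT libraries the order below Nfkbia was Tnfaip3, Nfkbiz, Nfkbid and Rela, and in both spleen libraries Rela came second and Rel last. Neighbours in the order were often close: Rel and Bcl3 in 2KR eWAT stood at 80.5 and 80.1 FPKM, and Nfkbid and Nfkb2 in WT spleen at 59.7 and 59.6 FPKM, within their Cufflinks confidence bounds.

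The summed FPKM of the 5 subunits was similar everywhere, at 329.2 in 2KR eWAT, 301.3 in WT eWAT, 285.3 in 2KR spleen and 294.1 in WT spleen. Rel made up 24.5% of that sum in 2KR eWAT and 14.7% in WT eWAT, against 3.57% in 2KR spleen and 4.16% in WT spleen. The ratio of Rel to Rela FPKM was 0.795 in 2KR eWAT and 0.376 in WT eWAT, against 0.0935 in 2KR spleen and 0.111 in WT spleen. These ratios within a library do not depend on scaling between libraries. Rela was the largest share of the subunits in every library, from 30.8% in 2KR eWAT to 39.1% in WT eWAT. Relb took 18.6% in 2KR eWAT and 16.4% in WT eWAT, against 25.5% in 2KR spleen and 25.2% in WT spleen.

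**Figure D3:**
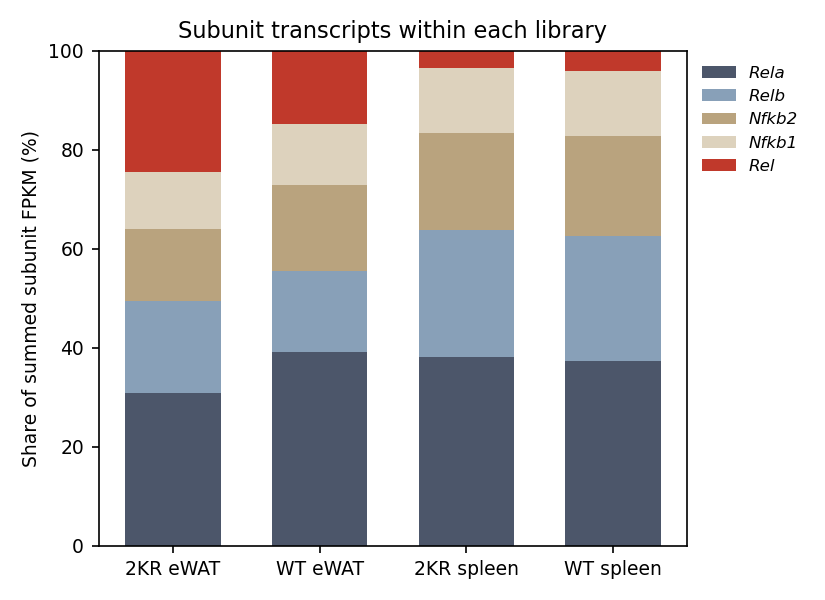
Share of the summed FPKM of the 5 subunits held by each subunit, in percent, stacked to 100% for each of the 4 libraries. Rel fills 24.5% of the 2KR eWAT bar and 14.7% of the WT eWAT bar, against 3.57% and 4.16% of the 2KR and WT spleen bars.

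The inhibitors together summed to 3419 FPKM in 2KR eWAT and 5839.7 FPKM in WT eWAT, against 939.5 FPKM in 2KR spleen and 1040.2 FPKM in WT spleen. Their sum was 10.4 times the subunit sum in 2KR eWAT and 19.4 times in WT eWAT, against 3.29 times in 2KR spleen and 3.54 times in WT spleen. Nfkbia held 49.7% of the inhibitor FPKM in 2KR eWAT and 49.9% in WT eWAT, against 73.0% in 2KR spleen and 76.4% in WT spleen. Tnfaip3 held 28.7% in 2KR eWAT and 27.6% in WT eWAT, against 8.25% in 2KR spleen and 6.37% in WT spleen. These 2 shares differed more between tissues than between genotypes.

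The genotype comparison asks how Treg cells of PPARg-2KR mice differ from WT. Within eWAT, the 4 inhibitors that were high there stood lower in 2KR than in WT, at 48.4% of the WT level for Nfkbia, 45.1% for Nfkbid, 44.4% for Nfkbiz and 50.2% for Tnfaip3, while Rel stood higher in 2KR. With 1 library per tissue and genotype there is no test within a tissue. The log2 ratios of 2KR over WT carry exact binomial 95% intervals that cover counting error only. The eWAT ratio was −1.17 (−1.21 to −1.14) for Nfkbiz, −1.15 (−1.20 to −1.10) for Nfkbid, −1.05 (−1.07 to −1.02) for Nfkbia and −0.995 (−1.014 to −0.977) for Tnfaip3. The first 3 lay past 2-fold, where 2.33% of the 12307 genes, and 1.99% of those with a mean of at least 20 CPM, had a ratio of −1 or lower. Tnfaip3 lay just short of it. None of the 10 had a ratio of 1 or more, as 5.35% of the 12307 genes did. The median ratio in eWAT was −1.05 over the inhibitors and −0.24 over the subunits, beside −0.08 over all 12307 genes. In eWAT, 8 of the 10 genes had a ratio below 0, beside 55.9% of all these genes and 69.7% of those with a mean of at least 20 CPM. The 7 Treg and T cell markers had a median eWAT ratio of −0.37, with 6 of them below 0, and Foxp3 stood at −0.53. What part a change in the share of Treg cells had in the ratios of the 10 genes was not tested.

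These sizes depend on the scaling. Total-count scaling moved the median eWAT ratio of all genes up by 0.25 on the log2 scale. Under it the ratio was −0.92 for Nfkbiz, −0.90 for Nfkbid, −0.79 for Nfkbia and −0.74 for Tnfaip3, so that none of the 10 genes lay past 2-fold, where 1.1% of all genes were at −1 or lower. The number of the 10 with an eWAT ratio below 0 was then 7. The ratios of these 4 inhibitors stayed below 0 under every scaling and measure tried.

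Among the subunits, Rel had a ratio in eWAT of 0.58 (0.48 to 0.69), the only ratio of the 10 whose interval lay above 0. Several marker lists were also higher in 2KR eWAT than in WT eWAT, with median ratios of 0.56 for macrophages, 0.81 for dendritic cells, 1.01 for B cells and 3.32 for mast cells. The summed mast cell markers were 55.5 CPM in 2KR eWAT and 5.72 CPM in WT eWAT, and the summed B cell markers 150.4 CPM in 2KR eWAT and 85.5 CPM in WT eWAT. Their part in the Rel value was not tested. Rela had −0.50 (−0.57 to −0.42), Nfkb2 −0.40 (−0.50 to −0.29) and Nfkb1 −0.24 (−0.35 to −0.14), while Relb had 0.02 (−0.10 to 0.14). The Nfkb1 ratio changed sign to 0.01 under total-count scaling. Bcl3 had −0.50 (−0.61 to −0.39).

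In spleen no ratio of the 10 genes passed 2-fold; 1.01% of the 12307 genes reached 1 or more and 5.71% reached −1 or lower. The Nfkbiz ratio was 0.43 (0.34 to 0.52) and the Tnfaip3 ratio 0.21 (0.15 to 0.27), both higher in 2KR. The Nfkbia ratio was −0.24 (−0.27 to −0.20), the Nfkbid ratio −0.02 (−0.11 to 0.08), the Bcl3 ratio −0.29 (−0.38 to −0.20) and the Rel ratio −0.32 (−0.52 to −0.13). The 4 remaining subunits lay between −0.10 for Nfkb2 and −0.04 for Rela. In spleen 8 of the 10 genes had a ratio below 0 (6 under DESeq2's size factors), beside 59% of the 12307 genes. The eWAT ratio minus the spleen ratio was past 2-fold for 3 genes, at −1.60 for Nfkbiz, −1.21 for Tnfaip3 and −1.13 for Nfkbid, where 3.01% of all genes were at −1 or lower and 12.6% at 1 or more. Under total-count scaling 2 genes were past 2-fold, in opposite directions: Nfkbiz at −1.38 and Rel at 1.13, while Tnfaip3 stood at −0.98 and Nfkbid at −0.91. The same 2 genes were past 2-fold by FPKM with either pseudocount. The median difference over all genes moved up by 0.225 under total-count scaling, and by 0.204 and 0.221 under FPKM with pseudocounts of 1 and 0.1. The share of all genes past 2-fold was not computed under these 3 settings, so nothing is read from their counts. The difference between the tissues was not tested.

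**Figure D4:**
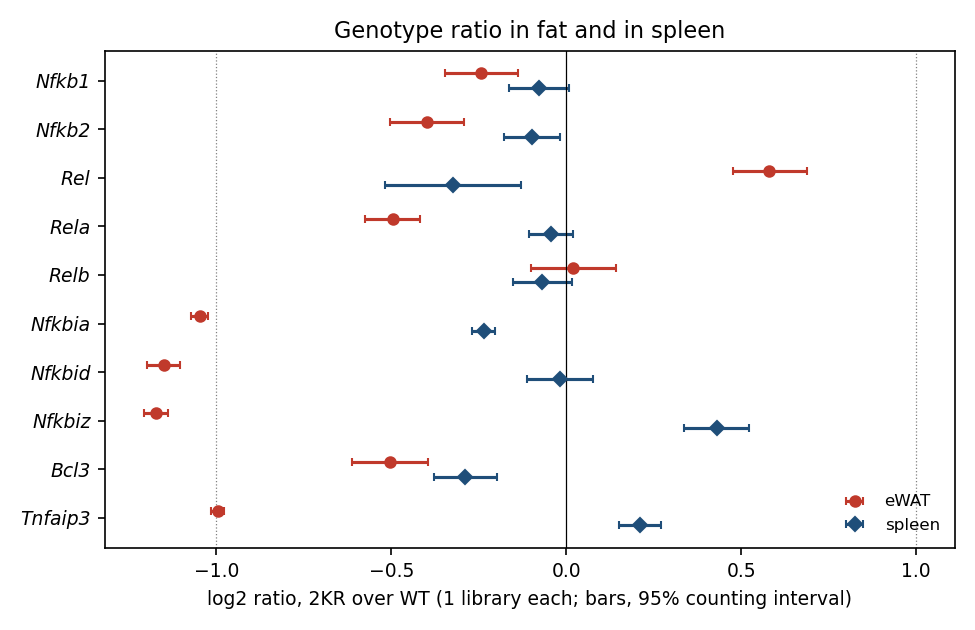
Log2 ratio of 2KR over WT for each gene within eWAT and within spleen, 1 library each; points are ratios of TMM-scaled CPM and bars are exact binomial 95% intervals on the reads. Nfkbia, Nfkbid, Nfkbiz and Tnfaip3 lie between −1.17 and −0.995 in eWAT and between −0.24 and 0.43 in spleen, and Rel lies at 0.58 in eWAT and −0.32 in spleen.

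edgeR's quasi-likelihood test was also run for a genotype difference shared by the tissues, in a model that also holds tissue and leaves 1 residual degree of freedom. None of the 10 genes passed (0 of 10, every adjusted p 0.9998), nor did any with DESeq2 (0 of 10). Of all 16488 genes, 0.0667% passed as lower in 2KR and 0% as higher. At an unadjusted p under 0.05 there was 1 gene of the 10, Nfkbid (log2 fold change −0.59 ± 0.28, SE; edgeR unadjusted p = 0.0465). By the same rule 3.43% of all genes were lower and 1.29% higher in 2KR.

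Several transcripts were deposited for 3 of the genes, and those of Tnfaip3 and Nfkb2 differed in their shares between libraries. The Tnfaip3 transcript with the upstream start had 492.3 FPKM (483.2 to 501.4, Cufflinks confidence bounds) in 2KR eWAT and 1061.5 FPKM (1050.7 to 1072.3) in WT eWAT. It had 37.5 FPKM in 2KR spleen and 24.5 FPKM in WT spleen. The transcript with the downstream start, 3447 bases further on, had 489.9 FPKM in 2KR eWAT and 550 FPKM in WT eWAT, against 40.1 FPKM in 2KR spleen and 41.8 FPKM in WT spleen. The upstream start thus carried 50.1% of the gene's FPKM in 2KR eWAT and 65.9% in WT eWAT, against 48.3% in 2KR spleen and 36.95% in WT spleen. The window of the upstream start, printed above, holds the kappaB matches, and that of the downstream start holds none. Whether the matches bear on these shares was not tested. Cufflinks splits reads of shared exons by a model, and there is 1 library per group, so the shares have no replicate error.

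**Figure D5:**
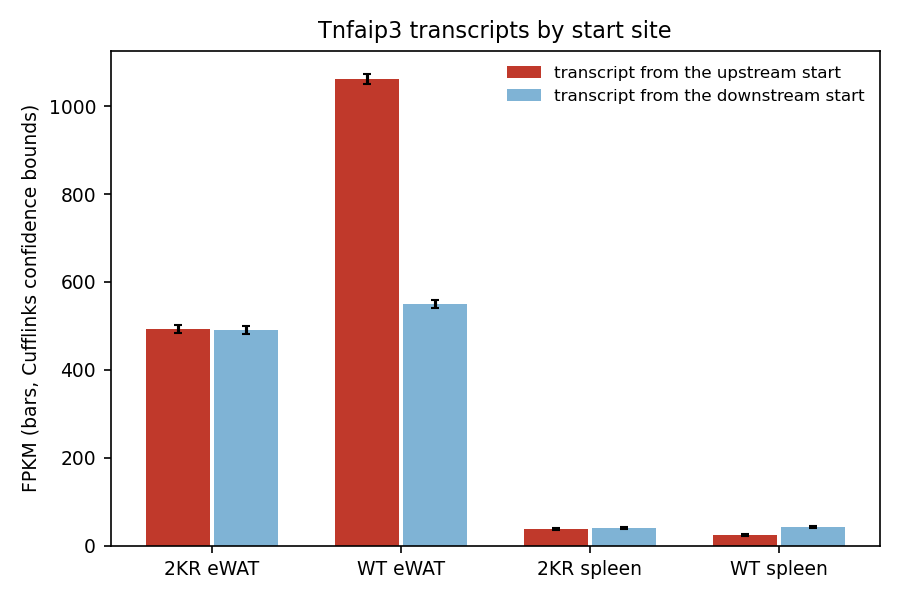
FPKM of the 2 Tnfaip3 transcripts in the 4 libraries, with bars for the Cufflinks confidence bounds. The upstream-start transcript stands at 492.3 FPKM in 2KR eWAT and 1061.5 FPKM in WT eWAT, and the downstream-start transcript at 489.9 FPKM and 550 FPKM in these libraries.

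For Nfkbiz a single transcript carried 87.5% of the FPKM in 2KR eWAT, 90.4% in WT eWAT, 86.7% in 2KR spleen and 87.3% in WT spleen, so its makeup was similar across libraries. For Nfkb2 the transcript with the first start carried 98.6% in 2KR eWAT, 80.5% in WT eWAT, 78.5% in 2KR spleen and 90.5% in WT spleen. The other 7 genes have 1 transcript in the deposited annotation.

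The rest of the pathway is given by lists of genes. Of 22 kinases and adaptors that carry receptor signals to IkB kinase, 1 rose, 7 fell and 14 did not pass in eWAT. For these and the following counts, the shares over all genes tested were 33.7% higher and 23.2% lower, or 10.2% and 42.8% at a mean of 20 CPM or more, and nothing is read from a count near those shares. The riser was Birc3, a ubiquitin ligase of the TNF receptor complex (log2 fold change 0.93, edgeR adjusted p = 0.0037). Those that fell furthest were Traf5 (−1.70, adjusted p = 1.06e-04), Ikbke (−1.66, adjusted p = 2.64e-05) and the TNF receptor adaptor Tradd (−1.44, adjusted p = 1.12e-04) with edgeR. Among genes that link the antigen receptor to NF-kB, Prkcq fell (−1.08, edgeR adjusted p = 0.00164) and Malt1 rose (0.80, edgeR adjusted p = 0.00494). Bcl10 did not pass (−0.05, edgeR adjusted p = 0.83). In other inhibitors, 3 of 11 rose and 1 fell. Tnip3, which encodes an A20-binding protein, rose by 2.57 (edgeR adjusted p = 3.29e-05), the ribonuclease gene Zc3h12a by 2.53 (edgeR adjusted p = 2.07e-05) and Itch by 0.49 (edgeR adjusted p = 0.0428), and Tnip1 fell by 1.36 (edgeR adjusted p = 1.32e-04) on the log2 scale.

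Among 12 receptors and ligands that act upstream, 6 rose and 2 fell. The IL-33 receptor gene Il1rl1, a known marker of fat Treg cells, rose most (5.29, edgeR adjusted p = 1.31e-05), and Tlr2 rose by 2.42 on the log2 scale. Il1rl1 had 278 CPM in 2KR eWAT and 1428 CPM in WT eWAT, against 27.0 CPM in 2KR spleen and 16.5 CPM in WT spleen. The lymphotoxin genes fell, Lta by 3.66 (edgeR adjusted p = 1.22e-07) and Ltb by 2.13 (edgeR adjusted p = 4.55e-05) on the log2 scale. Of 19 tested NF-kB target genes, 10 rose, 2 (Ltb and the adhesion molecule gene Vcam1) fell and 7 did not pass, with a median tissue log2 fold change of 1.01 beside 0.11 over all genes. The largest were Ccl22 (9.69), Il1b (8.08), Il6 (5.93) and Csf2 (5.47), all cytokine or chemokine genes that passed with edgeR. Myeloid cells are also known to express several of these, and the summed macrophage and dendritic cell markers were higher in the same libraries; their part in these values was not tested.

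The immediate early genes, which respond rapidly to many stimuli, were mostly also higher in eWAT and lower in 2KR eWAT. Of 14, 11 rose and 2 (Jun and Egr2) fell in eWAT, where 33.7% of all genes tested rose and 23.2% fell. An eWAT ratio of 2KR over WT of −1 or lower was found for 10 of the 14, against 2.33% of the 12307 genes and 1.99% of those with a mean of at least 20 CPM. Those with the largest tissue difference were Atf3 (log2 fold change 9.36, edgeR adjusted p = 2.54e-07), Fosb (6.19, adjusted p = 6.00e-07), Ier3 (5.60, adjusted p = 8.88e-09) and Nr4a1 (3.46, adjusted p = 3.40e-05). The sum of the 14 was 9603 CPM in 2KR eWAT and 24066 CPM in WT eWAT, against 6465 CPM in 2KR spleen and 6295 CPM in WT spleen. The median ratio in eWAT was −1.33 for these 14 genes, beside −1.05 for the 5 inhibitors. Their part in the inhibitor values was not tested. In eWAT the summed fibroblast markers were also lower in 2KR, at 193.3 CPM against 461.5 CPM in WT, as were the summed markers of type 2 innate lymphoid cells, at 44.2 CPM against 85.8 CPM in WT. The part of these cells in the inhibitor values was not tested.

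The genes nearest in pattern over the 4 libraries were taken from 7684 genes with a mean of at least 20 CPM, by the distance between centred log2 levels. They were Rab31 (0.07), Cst3 (0.19) and Ifitm2 (0.27) for Rel. They were Ccrl2 (0.19), Zc3h12a (0.20) and Egln3 (0.23) for Nfkbid, and Klrg1 (0.20), Lpcat2 (0.23) and Lrrn4 (0.25) for Nfkbiz. For Nfkbia they were Nqo2 (0.15), S100a11 (0.16) and Tagln2 (0.16), and for Tnfaip3 Gpx3 (0.26), Lpcat2 (0.39) and Adam8 (0.42). Nfkbiz and Tnfaip3 lay 0.54 apart.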

How the data were processed

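The deposited read counts are whole, unscaled numbers per gene symbol, 1 table for each of the 4 libraries. FPKM, for genes and for single transcripts, came from the authors' Cufflinks 2.0.2 run. Per the deposited readme, poly-A selected libraries were read at 100 bp. TopHat 2.1.0 placed the reads, after bcl2fastq 1.8.4, on mm9 and allowed 4 mismatches and 10 multiple hits. The submitters' processing notes also name mm8 and DESeq. How reads were counted, and whether strand was used, is not stated in these sources, and reads of overlapping genes cannot be told apart.

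Counts were scaled with TMM and tested with edgeR 4.0.16 in R 4.3.3 (quasi-likelihood, filterByExpr, Benjamini-Hochberg, threshold 0.05). The standard errors are the log2 fold change divided by the root of its F value. Alternatives used DESeq2 1.42.0 and limma 3.58.1 on log2 FPKM. Within a tissue, log2 ratios of CPM (prior count 2) were taken for the 12307 genes that reached 5 CPM in any library. A level of 3 reads was 0.197 to 0.312 CPM. On simulated counts (16552 genes), the tissue test recovered 40 of 100 genes changed by 1 on the log2 scale and 100 of 100 changed by 2. The genotype test (16559 genes) recovered 33 and 100 of 100. In the tissue and genotype simulations 7 and 4 unchanged genes were called. Every simulated gene had the same dispersion, only genes with a mean of at least 20 CPM were changed, and no other effect was added. The real spread differs between genes, so these rates hold for the simulated setting only.

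The genes and lists were chosen with earlier results of these data known. All 10 genes are named. From each list at most 4 were eligible, those with the largest tissue fold change and at least 20 CPM in 1 library. Birc3, Jun, Egr2 and Vcam1 were named after their values were seen. Up to 3 nearest genes were taken for each gene that passed with a log2 fold change past 1. Some listed genes are not reported here.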

Additional observations from a re-analysis of the deposited data

Results flagged for a closer look

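For 3 of the genes the genotype ratio pointed in opposite directions in the 2 tissues, with counting intervals that exclude 0 in both. The share of all genes that meet this rule was not computed, so nothing is read from the count. These intervals are narrow for any gene with many reads. The difference was not tested, since there is 1 library per tissue and genotype. For Rel, log2 of the 2KR level over the WT level stood at 0.58 in eWAT and −0.32 in spleen, a difference of 0.90. For Nfkbiz it was −1.17 in eWAT and 0.43 in spleen, a difference of −1.60. For Tnfaip3 it was −0.995 in eWAT and 0.21 in spleen, a difference of −1.21. Relb also had opposite signs, 0.02 in eWAT and −0.07 in spleen, with intervals that include 0. The intervals do not cover variation between mice or sorts.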

How the results depend on the processing

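The tissue call of Rel, Nfkbid, Nfkbiz and Tnfaip3 held, as higher in eWAT, under total-count scaling, DESeq2, no filter on low counts, limma on FPKM with both pseudocounts, and genotype as a term. The log2 fold changes of these genes also stayed above 0 on leaving out each library in turn. The number of the 10 genes called between tissues was 6. It was 5 under total-count scaling and with limma on FPKM, and 6 with DESeq2, with no filter and with genotype as a term. Fits without a library leave 1 in a tissue, so no count of the 10 is read from them. Where a library was left out, the remaining library of its tissue was assumed to vary like the pair of the other tissue. The Relb call was also lost with limma at a pseudocount of 0.1 (−0.42, adjusted p = 0.191). Tissue differences that had not passed changed sign for Nfkb1, to 0.040 under total-count scaling and 0.001 under FPKM with either pseudocount. They changed sign for Bcl3, to 0.096 under total-count scaling, 0.094 and 0.095 under FPKM with pseudocounts of 1 and 0.1, 0.111 without 2KR eWAT and 0.056 without WT spleen. The Relb genotype term changed sign to 0.117, 0.140 and 0.142 under total-count scaling and FPKM with pseudocounts of 1 and 0.1. The number of the 10 genes past 2-fold between genotypes in eWAT was 3, and 0 under total-count scaling, 0 under FPKM with a pseudocount of 1 and 0 with 0.1. Under these settings the median eWAT ratio of all genes moved up by 0.254, 0.235 and 0.255 in that order. The cause of the lower counts was not tested. Over all genes, the tissue test called 9388 genes, against 5030 and 3687 with limma on FPKM at pseudocounts of 1 and 0.1 and 6074 without 2KR spleen. By direction, the largest moves on leaving out a library were 3402 higher against 5555 (without 2KR eWAT) and 1909 lower against 3833 (without WT spleen) with edgeR. The common genotype test called 11, against 27 under total-count scaling, 2 with DESeq2, 51 without the filter, and 3 and 0 with limma on FPKM. The paired fit of the tissue test, with genotype as the block over 2 pairs and 1 residual degree of freedom, also called 6 of the 10 genes, and 8495 of all genes. With 1 library per group, counting error is small for these genes and the spread between mice is not measured.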
